A study of Mus musculus with 8 samples.

Results

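Pericytes are the mural cells that sit on capillaries, and here they are the 352 of 5205 single hippocampal cells (6.76%) that were selected on their own transcripts. A cell was selected when mitochondrial genes made up at most 20% of its unique molecular identifiers (UMIs, one per captured transcript), when Kcnj8, Rgs5, Vtn, Abcc9, Pdgfrb, Higd1b and Atp13a5 together made up at least 0.4%, and when the contractile genes Acta2, Tagln, Myh11, Myl9 and Cnn1 stayed under 0.25%. Of the 352 pericytes, 243 also carried at least 0.7% of their UMIs from 9 endothelial genes (Cldn5, Flt1, Pecam1, Ly6c1, Itm2a, Slco1a4, Cdh5, Slc2a1 and Abcb1a), and 109 did not. The cells came from 8 wildtype a/a mice aged 5 months, with 2 females and 2 males in each of 2 groups. Mothers of the Pb group were given drinking water with 32 ppm Pb-acetate, starting 2 weeks ahead of mating and ending at weaning, and control mothers were not. All offspring then had Pb-free water. The hippocampus of each saline-perfused mouse was dissociated into single cells, which were frozen, thawed and captured by 10x Chromium. Mice are named by group, sex and number (Pb F1, control M2), and 1 male and 1 female were kept per litter, although the labels do not say which mice were littermates.

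Pericytes share a basement membrane with the endothelium of brain capillaries. Endothelial PDGF-B acts on the pericyte receptor encoded by Pdgfrb and recruits pericytes to the vessel, and pericytes in turn help to maintain the blood-brain barrier. Brain pericytes carry an ATP-sensitive potassium channel made of the pore subunit encoded by Kcnj8 and the sulfonylurea receptor encoded by Abcc9. Along the capillary wall they are tightly attached to endothelial cells.

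Each mouse gave between 20 and 86 pericytes. The counts were 58, 29, 71 and 86 for Pb F1, F2, M1 and M2, and 20, 33, 34 and 21 for the control mice in the same order. Summed over pericytes, a mouse had between 184364 and 691495 UMIs. Of 5199 cell barcodes, 32 occurred in more than 1 library, and 8 of the 352 pericytes had such a barcode, all 8 among the 243 with endothelial genes. A doublet caller marked 33 of all 5258 cells (0.628%) and 1 of the 352 pericytes, which was not among the 243.

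The defining markers went with the label. Ndufa4l2, a mitochondrial protein gene enriched in mural cells that the selection did not use, averaged 591 CPM (UMI counts scaled to a common total per mouse) in pericytes and 17.8 CPM in endothelial cells (n = 8 mice). Notch3, a receptor of mural cells, had UMIs in 77.1% of the pericytes under the endothelial limit against 7.01% of endothelial cells and 6.31% of microglia. With every cell thinned to 2000 UMIs, these shares were 58.1%, 2.04% and 1.97%. In pericytes over the limit Notch3 had UMIs in 74.9%, and in 34.0% after thinning. The Notch3 share in endothelial cells is close to that in microglia, which do not express the gene. Cspg4 and Anpep, also outside the selection, were found less often. After thinning they had UMIs in 33.3% and 31.4% of pericytes under the limit and in 18.7% and 8.94% over it. Endothelial cells were chosen with under 0.1% of UMIs from the 7 pericyte genes, so their low shares are not independent of that choice.

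The 2 kinds of pericyte separated on the endothelial genes. The 9 genes made up under 0.4% of UMIs in 102 pericytes and at least 1% in 218, and only 11 pericytes lay from 0.4 to 0.8%. Around the 0.7% limit itself, 3 pericytes lay from 0.6 to 0.7% and 4 from 0.7 to 0.8%. The median share was 0.155% in the 109 pericytes under the limit, 1.55% in the 243 over it, 2.29% in 1056 endothelial cells and 0.134% in 1347 microglia. These shares are what divided the cells, so they describe the division and test nothing.

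**Figure D1:**
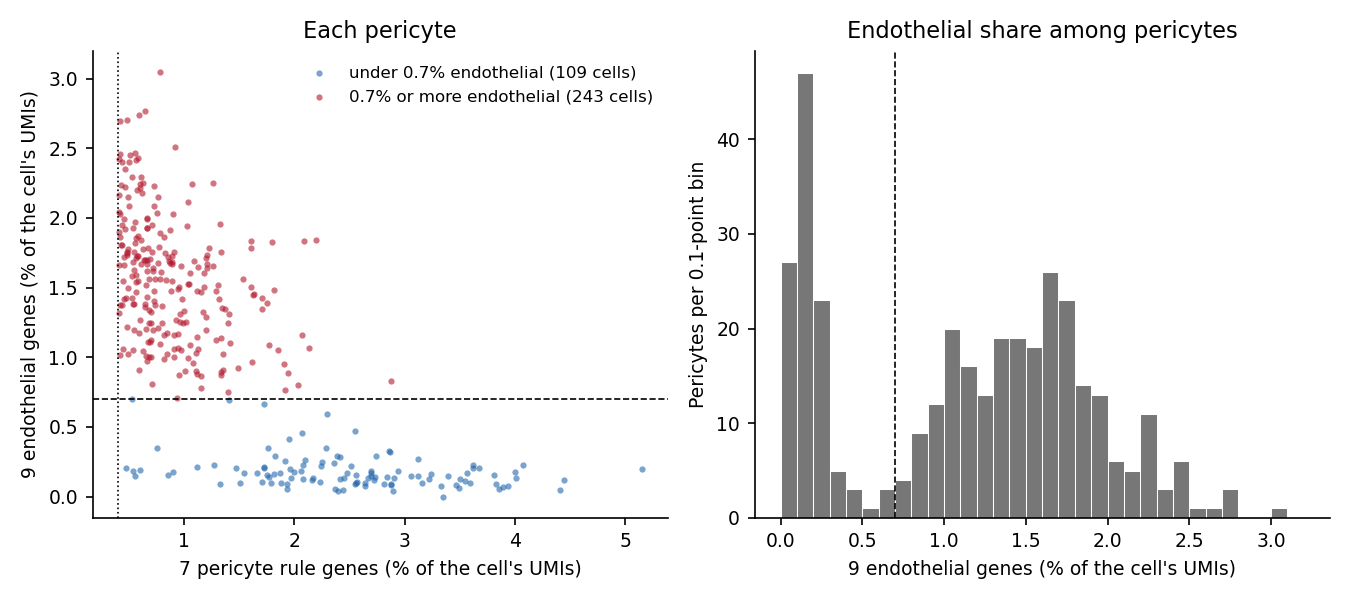
Left, the share of each pericyte's UMIs from the 7 pericyte genes (x, %) against the share from the 9 endothelial genes (y, %), with the 2 limits as dashed and dotted lines. Right, the number of pericytes in each 0.1-point bin of the endothelial share, with a gap between a group under 0.4% (102 cells) and a broad group mostly over 1% (218 cells).

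Pericytes over the endothelial limit held more UMIs and more genes than those under it in each of the 8 mice. Median UMIs per cell were 4057 under the limit, 9344 over it and 5318 in endothelial cells. Within mice, the medians under the limit ran from 3042 (Pb M2) to 4757 (control M2), and those over it from 8802 (control M1) to 11274.5 (Pb M1), with no overlap. The difference of medians averaged 5457 ± 948 UMIs (SD, n = 8 mice), and an exact two-sided sign-flip permutation test gave p = 0.0078125, the smallest it can give with 8 mice (adjusted p = 0.0117 over the 3 measures tested).

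Genes detected per cell showed the same order. The medians were 1966 under the limit, 3533 over it and 2323 in endothelial cells. The difference averaged 1567 ± 173 genes (SD, n = 8) and was above 0 in 8 of 8 mice (exact sign-flip permutation p = 0.0078125, adjusted p = 0.0117). The median mitochondrial share was higher over the limit in 7 of 8 mice, by 0.502 ± 0.552 percentage points (exact sign-flip permutation p = 0.046875, adjusted p = 0.046875), and Pb F2 had the opposite sign. This last difference lost the threshold when any 1 of 7 mice was left out, and held only without Pb F2.

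The UMI total of a pericyte over the limit was near the sum of the other 2 kinds. Adding each mouse's median pericyte under the limit to its median endothelial cell gave 7502.5 to 11011 UMIs, beside the measured 8802 to 11274.5. The median number of UMIs from the 7 pericyte genes was 97 under the limit, 85 over it and 1 in endothelial cells. The median number from the 9 endothelial genes was 6, 143 and 128. By mouse, the medians for the pericyte genes ran from 54 to 145 under the limit and from 66 to 106 over it. Those for the endothelial genes ran from 116.5 to 156 over the limit and from 106 to 147 in endothelial cells. These genes are the ones that selected and divided the cells, so their counts are a description and test nothing. How the 2 sets of transcripts came to share a barcode was not tested.

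**Figure D2:**
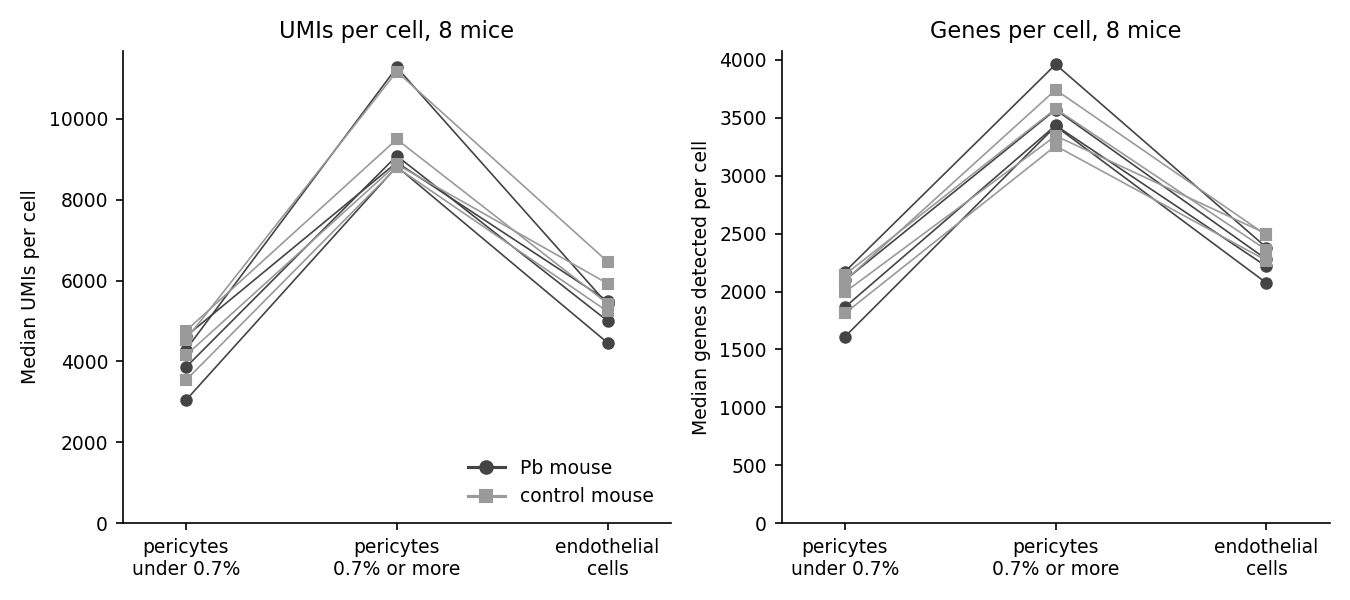
Median UMIs (left) and median genes detected (right) per cell in pericytes under the 0.7% endothelial limit, pericytes over it and endothelial cells, with 1 line per mouse (circles Pb, squares control). All 8 lines peak at the pericytes over the limit, at 8802 to 11274.5 UMIs.

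Microglia, oligodendrocytes and astrocytes seldom shared a barcode with endothelial genes, and smooth muscle cells did so more often. The 0.7% limit was met by 10 of 1354 cells that passed a microglia limit (0.739%, 95% Wilson interval 0.402 to 1.35), by 1 of 1296 that passed an oligodendrocyte limit and by 0 of 272 that passed an astrocyte limit, which allows a share of up to 1.1%. Among 48 cells that passed a smooth muscle limit it was met by 12 (25%, interval 14.9 to 38.8), and among pericytes by 69.0% (interval 64.0 to 73.6). These intervals cover counting error only. Of the 352 pericytes, 1 passed the microglia limit, 0 the oligodendrocyte limit (a share of up to 0.852%) and 1 the astrocyte limit. Seen from the other side, 243 of the 1585 cells that met the endothelial limit and stayed under the contractile limit (15.3%) were pericytes.

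The pericyte genes that made the selection are given here as a description. Vtn, which encodes the matrix protein vitronectin, stood at 63.2 UMIs per cell under the limit, 34.0 over it and 0.830 in endothelial cells. Rgs5, a regulator of G-protein signalling, went the other way between the 2 kinds of pericyte, with 20.03 UMIs per cell under the limit and 37.3 over it. Kcnj8 stood at 4.74 and 2.89 UMIs per cell, and its partner Abcc9 at 2.25 and 2.11. Pdgfrb (4.27 and 4.10), Higd1b (7.67 and 7.07), Atp13a5 (4.31 and 3.44) and Ndufa4l2 (6.06 and 5.15) were also close in UMIs per cell. As a share of all UMIs, the 7 selection genes over the limit had 21.4% (Vtn) to 75.2% (Rgs5) of their level under it, with a median of 37.3%, and 27 other pericyte markers had a median of 32.1%.

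The endothelial genes in pericytes over the limit stood near their endothelial level. In CPM, the 9 genes of the limit had 59.2% (Itm2a) to 82.2% (Flt1) of the level in endothelial cells. The 41 other endothelial genes that reached 50 CPM in endothelial cells, which the limit did not use, had a median of 74.1%. Pericytes under the limit had a median of 11.9% for these 41 genes, beside 6.72% in microglia. The claudin gene Cldn5, a tight-junction component, illustrates the scale with 1.35 UMIs per cell under the limit, 31.9 over it and 29.3 in endothelial cells. The glucose transporter gene Slc2a1 had 0.715, 16.5 and 14.3 UMIs per cell.

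**Figure D3:**
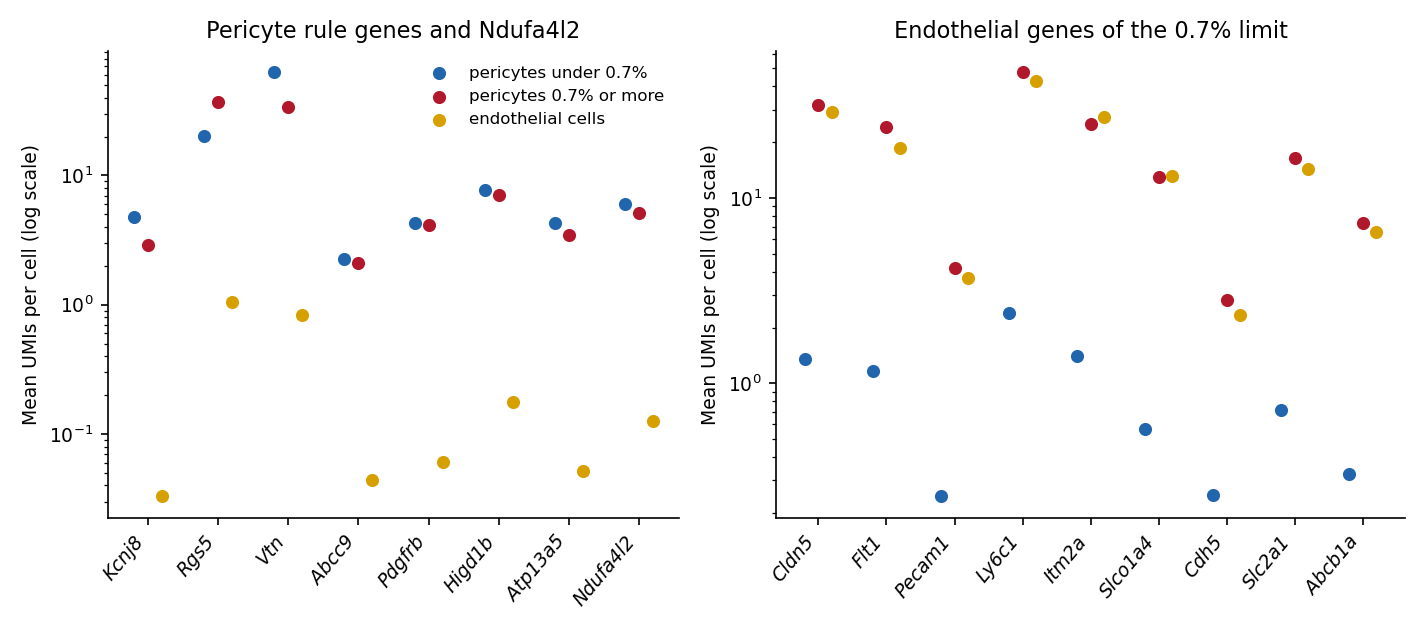
Mean UMIs per cell (log scale, mean of the mice) of the 7 pericyte selection genes with Ndufa4l2 (left) and of the 9 endothelial genes (right) in pericytes under the limit (blue), pericytes over it (red) and endothelial cells (yellow). Red lies beside blue on the left and beside yellow on the right, as for Abcc9 (2.11 beside 2.25) and Cldn5 (31.9 beside 29.3).

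Genes of larger vessels were compared between the same cells, on lists that were chosen after values had been seen. Gkn3, an arterial endothelial gene, stood at 321 CPM in pericytes over the limit, 31.3 under it and 241 in endothelial cells, or 133% of the endothelial level. Vwf, a venous and large-vessel gene, stood at 81.6, 6.39 and 127 CPM. Over the limit, the 7 capillary genes that reached 50 CPM in endothelial cells had a median of 76.8% of the endothelial level, the 4 arterial genes 123% and the 4 venous genes 63.5%. Mgp, one of these arterial genes, was itself high in pericytes under the limit at 1180 CPM, against 300 CPM in endothelial cells.

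Genes with pericytes as their highest class were ranked by their ratio to the next class. Levels were compared with endothelial cells, smooth muscle cells, microglia, oligodendrocytes and astrocytes after adding 5 CPM, and the cells were chosen by their own transcripts, so no test is given. Abcc9, one of the 7 genes that selected the cells, so that its place is fixed by the rule, had 237 ± 43.6 CPM (SD, n = 8) and a ratio of 21.95. Outside the selection genes, Pla1a, a phospholipase gene, had 133 ± 37.6 CPM and a ratio of 15.3, and was above each other class in 8 of 8 mice. The transporter genes Slc6a20a (293 ± 40.2 CPM) and Slc16a12 (84.2 ± 18.0 CPM), the growth factor gene Igf2 (157 ± 49.0 CPM) and Nodal (59.4 ± 23.2 CPM), a TGF-beta family ligand, were highest in pericytes in 8 of 8 mice.

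Some of these leading genes are also known from fibroblasts of the vessel wall and meninges. Dcn, which encodes decorin, was at 0 in control F1 and control M2 and between 25.1 and 204 CPM in the other 6 mice. Slc6a13 exceeded the other classes in only 6 of 8 mice. Dcn averaged 613 CPM in pericytes under the endothelial limit and 29.2 over it, and Slc6a13 237 and 21.8 CPM. Fibroblast markers made up at least 0.5% of UMIs in 9 of the 352 pericytes, all 9 among the 109 under the limit. Over all pericytes these markers made up 0.0108 to 0.0604% of UMIs per mouse. Their part in these genes' levels was not tested.

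The limits of the selection cut through a continuum at the low end. From 0.4 to 0.5% of UMIs from the 7 pericyte genes there were 40 pericytes, with a median endothelial share of 1.80% and 11901 UMIs. Just outside, from 0.3 to 0.4%, there were 63 cells with a median endothelial share of 1.92% and 8132 UMIs. On the contractile side, 22 pericytes lay from 0.2 to 0.25% and 15 cells that met the pericyte limit lay from 0.25 to 0.3%. In all, 88 cells met the pericyte limit but not the contractile one.

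The share of pericytes did not differ detectably between Pb and control mice. Pericytes were 4.97, 6.14, 6.52 and 10.1% of cells in Pb F1, F2, M1 and M2, and 9.48, 5.79, 9.21 and 4.41% in the control mice. The groups overlap fully, with means of 6.93 ± 2.21% and 7.22 ± 2.52% (SD, 4 mice per group, exact two-sided permutation p = 0.943). Of vascular cells, which are pericytes, smooth muscle cells and endothelial cells, 25.01 ± 8.66% were pericytes in Pb and 23.3 ± 4.76% in control mice (exact permutation p = 0.8, 4 mice per group). With 4 mice against 4, the smallest p this test can give is 0.0286.

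The endothelial share within pericytes did not differ detectably either. Pericytes over the limit amounted to 69.0, 72.4, 62.0 and 68.6% among Pb mice, against 75, 60.6, 85.3 and 71.4% among controls. This gave means of 68.0 ± 4.36% and 73.1 ± 10.2% (SD, 4 mice per group, exact permutation p = 0.4). The 9 endothelial genes made up 1.36 ± 0.161% of pericyte UMIs in Pb and 1.35 ± 0.0993% in control mice (exact permutation p = 0.971, 4 mice per group). For median UMIs per pericyte the means were 7098 ± 558 and 8033 ± 1778 (exact permutation p = 0.486, 4 mice per group), and all 5 measures had an adjusted p of 0.971.

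No gene differed between Pb and control pericytes after correction with the filter on low counts. Counts were summed per mouse over all pericytes, and edgeR's quasi-likelihood test with sex as a covariate called 0 of 6375 genes (0%) at a Benjamini-Hochberg adjusted p under 0.05, with 275 at an unadjusted p under 0.05. DESeq2 and limma-voom also called 0, with 124 and 303 at an unadjusted p under 0.05. Without the filter edgeR called 15 of 15258 genes (0.0983%). They were Ankrd37, Kif5a, the chaperone genes Hsph1 and Hspa1a, the hemoglobin genes Hba-a1, Hba-a2 and Hbb-bt, and the choroid plexus gene Ttr. The others were the oligodendrocyte marker Mbp, Ptgds, Plekhb1, Nov, Gh, 1500015O10Rik and Gm42726. Genes of lowest p follow with log2 fold changes, Pb over control, and their standard errors (SE), and they are ranked values and not calls. Genes ranked in this way tend to separate the groups, and the share of all genes without overlap between Pb and control was not counted. A lack of overlap is therefore given below as a description only. Their adjusted p was 0.998 for Ankrd37 and above that for the others, by edgeR.

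Ankrd37, a gene induced by hypoxia-inducible factor, lay at 65.8, 75.4, 94.1 and 78.1 CPM in Pb F1, F2, M1 and M2, and at 39.4, 36.1, 34.0 and 27.1 CPM in the control mice. The groups do not overlap, and the log2 fold change was 1.17 (SE 0.24, unadjusted p = 0.00016 by edgeR). In endothelial cells of the same mice its unadjusted p was 0.015 (edgeR). Sec31a, a subunit of the coat of vesicles that leave the endoplasmic reticulum, lay at 74.2, 75.4, 70.6 and 66.5 CPM in Pb mice, against 44.3, 46.0, 34.0 and 32.5 CPM in controls, again without overlap (log2 fold change 0.87, SE 0.23). The chemokine gene Ccl2 lay at 46.7, 43.1, 31.4 and 28.9 CPM in Pb mice, against 14.8, 16.4, 17.0 and 5.42 CPM in controls (log2 fold change 1.36, SE 0.38). The control sums held 184364 to 352887 UMIs, so these Ccl2 levels rest on very few counts. Tnfrsf12a, the receptor of the cytokine TWEAK, had 83.0 ± 13.4 CPM with Pb against 45.9 ± 16.9 CPM in controls (SD, 4 mice per group), also without overlap.

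Among the genes with lower values in Pb, Mt2, which encodes a metal-binding metallothionein, lay at 431, 298, 278 and 292 CPM in Pb mice, against 413, 699, 417 and 548 CPM in controls (log2 fold change -0.68, SE 0.17). Pb F1 overlaps the control mice. Nampt, an enzyme of NAD synthesis, had 68.4 ± 9.70 CPM with Pb and 126 ± 44.3 in controls, and Rbbp7, a histone-binding protein of chromatin complexes, 97.9 ± 17.1 and 154 ± 17.5 CPM (SD, 4 mice per group), both without overlap. Kif5a, a kinesin of neurons, was at 275 and 227 CPM in control F1 and M1 and between 39.2 and 89.7 CPM in the other 6 mice. The same 2 mice were high in endothelial cells, at 283 and 217 CPM against 39.4 to 107 CPM in the other 6 (log2 fold change -1.18). Without control F2, 2 genes passed the threshold, Kif5a at a log2 fold change of -1.77 and Ptgds, both also called without the filter on low counts.

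**Figure D4:**
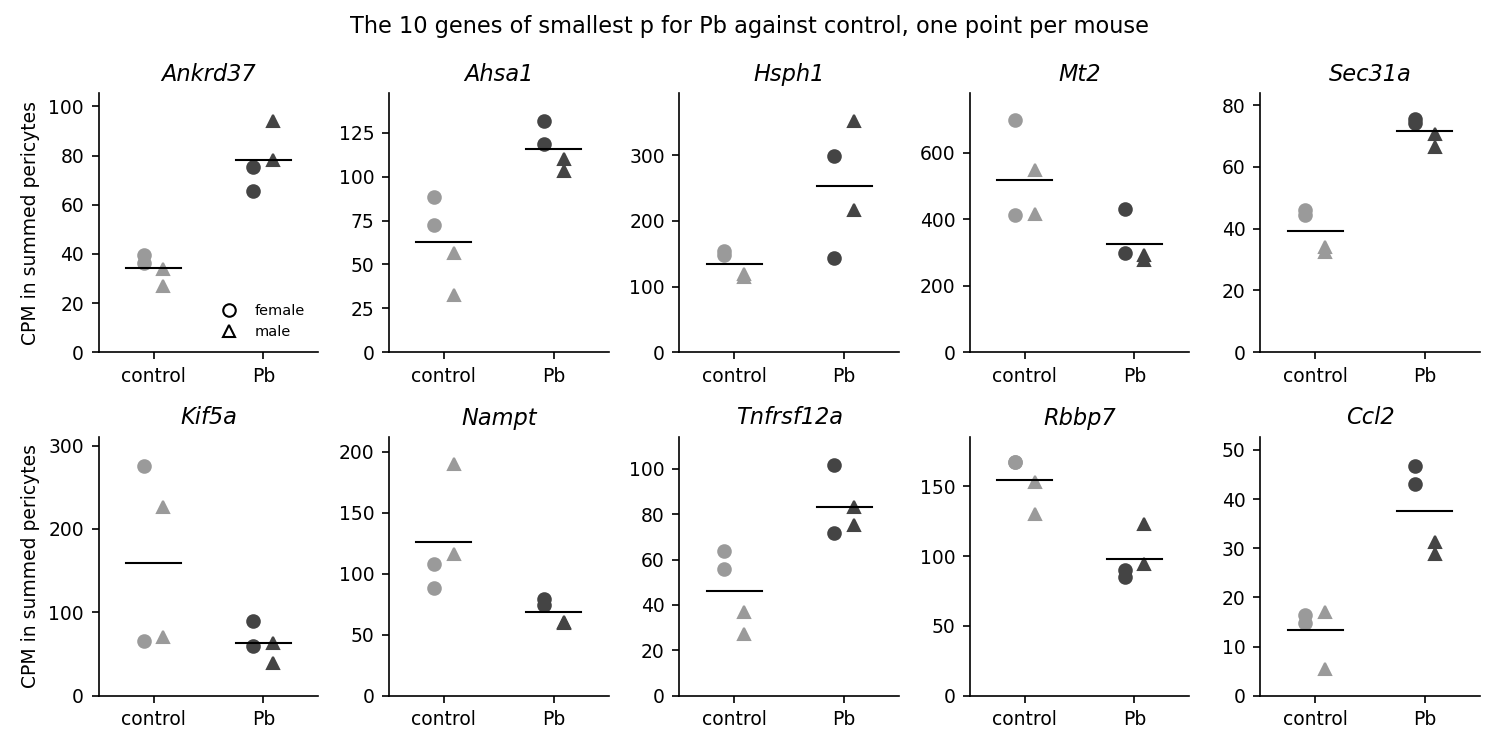
CPM in the summed pericytes of each mouse for the 10 genes of smallest p between Pb and control, with females as circles, males as triangles and group means as lines. Ankrd37 separates at 65.8 CPM or more in Pb and 39.4 or less in control mice, whereas Hsph1 and Mt2 overlap, and none of the 10 passed correction with the filter on low counts.

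Heat shock genes and chaperones, which fold and refold proteins, leaned one way. Of 25 genes on this list 22 could be tested, and 22 of 22 had a log2 fold change above 0 with a median of 0.41, beside a median of -0.01 over all 6375 genes, of which 48.4% were above 0. None was called by edgeR with the filter on low counts, and without it Hsph1 (adjusted p = 0.000866) and Hspa1a were. At an unadjusted p under 0.05, 10 of 22 were higher in Pb and 0 lower, where 2.16% of all genes were higher. Hsph1, a nucleotide exchange factor of HSP70, lay at 299, 144, 353 and 217 CPM in Pb mice, against 148, 154, 119 and 114 CPM in controls, so that Pb F2 overlaps them (log2 fold change 0.93, SE 0.24). Ahsa1, which activates the ATPase of HSP90, lay at 132, 118, 104 and 110 CPM in Pb mice, against 88.5, 72.2, 56.7 and 32.5 CPM in controls (log2 fold change 0.89, SE 0.21).

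The list as a whole made up 2.79, 1.98, 2.61 and 2.04% of pericyte UMIs in Pb F1, F2, M1 and M2, and 2.34, 1.83, 1.70 and 1.27% in the control mice. The lowest 2 Pb mice are below control F1. In endothelial cells of the same mice 23 of 25 chaperone genes were above 0 with a median of 0.16. The difference between the 2 cell types was tested gene by gene, and with all pericytes none passed. With only the pericytes under the endothelial limit, 7 of 5884 genes were called, among them the chaperone gene Hspa1b.

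Lists of related stress pathways are given by their counts, which stand beside 48.4% of all genes above 0 and 2.16% higher at an unadjusted p under 0.05. Of 24 hypoxia genes tested, 16 had values above 0 with a median log2 fold change of 0.09, and 4 were higher at an unadjusted p under 0.05, including the vasodilator peptide gene Adm (0.85, SE 0.29). Of 20 genes of the unfolded protein response, 14 were above 0 with a median of 0.17, and 4 were higher at an unadjusted p under 0.05. Calr, a chaperone of the endoplasmic reticulum, had 409 ± 17.5 CPM with Pb against 297 ± 51.4 in controls (SD, 4 mice per group, log2 fold change 0.44, SE 0.15), and Hsp90b1 had 413 ± 69.0 and 310 ± 22.1 CPM. Of 20 cytokine, adhesion and NF-kB genes, 14 were above 0 and 5 were higher at an unadjusted p under 0.05, including the leukocyte adhesion molecule gene Icam1 (0.82, SE 0.28). None of these genes was called by edgeR with the filter.

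Genes of metal and heme handling showed no common direction. Of 21 tested, 8 had values above 0 and 13 below, with a median of -0.04, and 3 were lower at an unadjusted p under 0.05, where 2.15% of all genes were. Tfrc, the transferrin receptor, which is also an endothelial gene, had a log2 fold change of -0.45 (SE 0.19). Both cold-inducible RNA-binding genes had values below 0, with Cirbp at 128 ± 40.3 CPM with Pb against 192 ± 51.2 CPM in controls (SD, 4 mice per group). Of 22 immediate early genes, 6 were above 0 and 16 below, with a median of -0.12.

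Of the genes of pericyte function, those of the matrix and of solute transport had most values below 0, where 48.4% of all genes were above 0. Of 27 other pericyte markers tested, 18 had values above 0 with a median of 0.08, and 1 was lower at an unadjusted p under 0.05. That 1 was Pth1r, a receptor that relaxes vessels, with 228 ± 24.3 CPM with Pb against 314 ± 67.3 in controls (SD, 4 mice per group, log2 fold change -0.44, SE 0.17). Of 16 channel and vasoactive receptor genes, 8 were above 0 with a median of 0.01, and of 27 genes of PDGF, TGF-beta and Notch signalling, 14 were with a median of 0.00. Of 27 basement membrane and matrix genes, 6 were above 0 and 21 below, with a median of -0.11 and 0 at an unadjusted p under 0.05. Of 14 solute transport genes, 4 were above 0 and 10 below, with a median of -0.07. Nid1, which links laminin to collagen in the basement membrane, had a log2 fold change of 0.36 (SE 0.18) and Sparcl1 -0.26 (SE 0.13). The 7 selection genes ranged from -0.12 (Pdgfrb) to 0.18 (Abcc9), and the channel gene Kcnj8 ran from 298 to 467 CPM in Pb and 315 to 394 CPM in control mice.

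Pericytes over the endothelial limit were 69.0% of the cells in these sums, so endothelial genes enter the comparison. The 9 endothelial genes of the limit had a median log2 fold change of -0.01 and the 42 other endothelial genes tested -0.01. Of 6 venous genes tested, however, 0 were above 0 (median -0.29). Of these, 3 were lower at an unadjusted p under 0.05 by edgeR, where 2.15% of all genes were. In endothelial cells of the same mice the venous genes were also above 0 in 0 of 6 (median -0.26). Arterial genes were above 0 in 4 of 6 in pericytes (median 0.20) and capillary genes in 3 of 8 (median -0.08). In pericytes over the limit alone, edgeR called 0 of 5833 genes, and in those under it 0 of 1163 (45 at an unadjusted p under 0.05). Of the chaperone genes tested, 22 of 22 were above 0 over the limit (median 0.43) and 11 of 14 under it (median 0.53). Genes of the unfolded protein response were above 0 in 13 of 19 over the limit and 6 of 9 under it (median 0.42). Other lists had most of their tested genes above 0 over the limit and below 0 under it. Hypoxia genes were above 0 in 15 of 23 over the limit and in 2 of 9 under it (median -0.06), other pericyte markers in 20 of 27 and 8 of 24 (median -0.18), and cytokine, adhesion and NF-kB genes in 13 of 18 and 3 of 7 (median -0.19). Fewer genes could be tested under the limit, where all genes had a median of -0.03, and the difference between the 2 kinds of pericyte was not tested. Hsph1 had a log2 fold change of 1.71 in the pericytes under the limit and 0.82 in those over it.

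Markers of other cells were read in the same sums. Oligodendrocyte markers made up 0.448 to 0.575% of pericyte UMIs in Pb and 0.359 to 0.845% in control mice, microglia markers 0.154 to 0.203% and 0.106 to 0.306%, and astrocyte markers 0.0373 to 0.0753% and 0.0428 to 0.0666%. Of the 8 oligodendrocyte markers tested, 6 had a Pb log2 fold change above 0 and 2 below, with a median of 0.43. At an unadjusted p under 0.05 by edgeR, 3 were higher in Pb and 0 lower, where 2.16% of all genes were higher. In endothelial cells of the same mice 6 of 8 were above 0, with a median of 0.31. Of 8 microglia markers 5 were above 0 in pericytes (median 0.01), and of 6 astrocyte markers 5 (median 0.22). Choroid plexus markers differed most between mice, at 0.430% in Pb F1, 0.318% in control F2, 1.48% in control M2 and at most 0.0392% elsewhere. These 3 mice also had high Ttr, the transthyretin gene of the choroid plexus, at 3958, 3040 and 13886 CPM. Hemoglobin made up 0.761% of UMIs in Pb M1 and at most 0.0705% elsewhere. Their part in the differences above was not tested.

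The Pb difference in pericytes was set against that in endothelial cells of the same mice. With mouse as a block, edgeR called 0 of 8543 genes (0%), and 387 had an unadjusted p under 0.05, while limma-voom called 0 with 345. The smallest p belonged to 8430408G22Rik, with a difference of log2 fold changes, pericytes minus endothelial cells, of -0.72 (SE 0.18), to the chemokine gene Ccl5 (2.27, SE 0.58) and to Rapgef5 (1.45, SE 0.38), followed by Sec31a (1.1, SE 0.29) and Tnfrsf12a (0.97, SE 0.26). All 5 had an adjusted p of 0.989 by edgeR. Against pericytes under the limit only, 7 of 5884 genes were called, among them the chaperone gene Hspa1b and the neutrophil chemokine gene Cxcl1, which are named because that setting called them. Without Pb M1, 2 genes were called, 8430408G22Rik and the hemoglobin gene Hbb-bt.

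Female and male pericytes differed in 5 of 6375 genes (0.0784%, edgeR). Xist, the RNA of the silenced X chromosome, and its antisense partner Tsix were higher in females (log2 fold change, male over female, -8.57 and -7.51), and the Y-linked genes Ddx3y (8.22) and Eif2s3y (6.96) were higher in males. Limma-voom did not call Tsix (adjusted p = 0.0582). DESeq2 and limma-voom each called 7 genes (0.11%). Xist and Tsix overlap on opposite strands, so their reads may not be told apart. Without Pb F1 the count was 8 and without Pb M2 it was 10, which included 3 hemoglobin genes. The fifth gene was Ifit3, an autosomal interferon-induced gene on chromosome 19 (34583531 to 34588731, GRCm38, plus strand, GENCODE annotation). It was higher in females, with a log2 fold change of -1.55 (SE 0.22, adjusted p = 0.00275 by edgeR).

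Ifit3 lay at 93.3, 136, 118 and 151 CPM in the females Pb F1, Pb F2, control F1 and control F2. In the males Pb M1, Pb M2, control M1 and control M2 it lay at 40.8, 41.9, 51.0 and 27.1 CPM. Each of the 4 females was above each of the 4 males, with means of 125 ± 24.9 and 40.2 ± 9.85 CPM (SD, 4 mice per group). Ifit3 was called by DESeq2 and limma-voom too, and whichever mouse was left out. In pericytes under the endothelial limit it had too few counts to be tested, where 3 interferon-induced genes could be and 1 of them was higher in females, and in pericytes over the limit its log2 fold change was -1.39 (adjusted p = 0.0273, edgeR).

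Interferons induce a set of antiviral genes through transcription factors that bind a promoter element called the ISRE. Of 35 genes on a list of such genes, which was chosen after Ifit3 had been seen, 31 were tested, 29 were higher in females and 2 in males, and the median log2 fold change was -0.55, beside -0.00 over all genes. At an unadjusted p under 0.05, 18 of 31 were higher in females and 0 in males, where 2.29% of all genes were higher in females. The 4 females lay above the 4 males in 12 of 31, which held for 1.24% of all genes tested. Of the list edgeR called Ifit3, DESeq2 called Ifit3 and Isg15, and limma-voom called Ifit3, Isg15 and Ifit3b. Other lists leaned toward females in the same pericytes, beside 49.5% of all genes above 0. Of 22 immediate early genes, 21 were below 0 (median -0.27) and 4 were higher in females at an unadjusted p under 0.05. Of 22 chaperone genes, 17 were below 0 (median -0.19) and 4 were higher in females at that p, and of 8 microglia markers 7 were below 0 (median -0.24). Some lists leaned toward males instead. Above 0 were 22 of 27 other pericyte markers (median 0.07), 5 of 6 fibroblast markers (median 0.48) and 5 of 6 astrocyte markers (median 0.20). On these lists 0 genes had an unadjusted p under 0.05 by edgeR. The part of microglia RNA in the interferon-induced genes was not tested.

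Isg15, a ubiquitin-like protein, lay at 240, 352, 325 and 207 CPM in the females and 129, 162, 145 and 86.8 CPM in the males in the same order (log2 fold change -1.07, SE 0.20, adjusted p = 0.0552 by edgeR). The adjusted p was 0.0059 with DESeq2 and 0.0485 with limma-voom, and 0.0273 in pericytes over the limit by edgeR. B2m, the light chain of MHC class I, had 1883 ± 268 CPM in females and 1206 ± 183 CPM in males (SD, 4 mice per group), without overlap (log2 fold change -0.66, SE 0.14, adjusted p = 0.102 by edgeR). Its adjusted p was also 0.0059 with DESeq2 and 0.0485 with limma-voom. Ifit3b, a near-identical neighbour of Ifit3 whose reads may be split with it, had a log2 fold change of -1.33 (SE 0.25, adjusted p = 0.0574 by edgeR and 0.0485 by limma-voom), and Ifit1, another member of the family, -0.94 (SE 0.24). All 6 MHC class I genes tested had values below 0 with a median of -0.50.

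**Figure D5:**
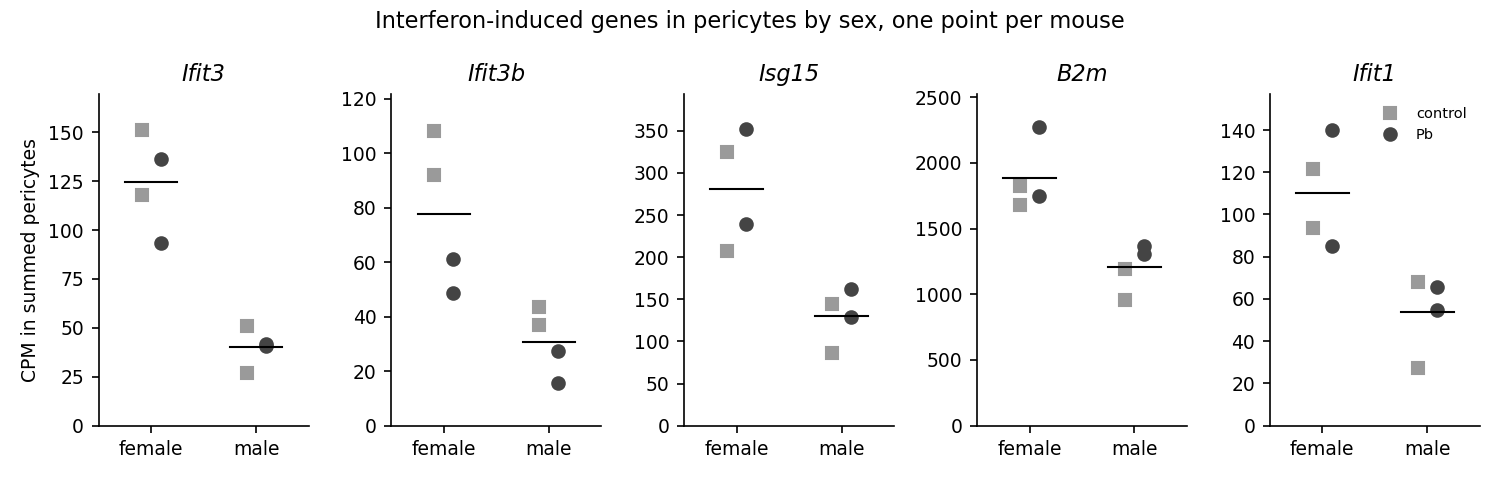
CPM in the summed pericytes of each mouse for 5 interferon-induced genes, with control mice as squares, Pb mice as circles and the mean of each sex as a line. For each gene the 4 females lie above the 4 males, as for Ifit3 (93.3 CPM or more against 51.0 or less), and by edgeR Ifit3 alone of the 5 passed the correction, while limma-voom also called Ifit3b, Isg15 and B2m, and DESeq2 Isg15 and B2m.

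The promoters of these genes are shown because the genes leaned the same way by sex. Bases upstream of the start of transcription were taken from RefSeq (GRCm38.p6), which gave a promoter for 32 of the 41 interferon and MHC class I genes. The letters GAAANNGAAA, the core of the ISRE, were searched on both strands, where they read TTTCNNTTTC, in the 250 bases before the start. They were present in 11 of the 32, and in 978 of all 32851 promoters (2.98%). A match is a description of the letters and not a binding site. Matches did not follow the sex difference gene by gene. Where the 4 females lay above the 4 males, Ifit1, Ifit3, Ifit3b, Isg15, Rsad2 and B2m held a match. Irf7, Ifitm3, Ddx58, Psmb8 and Slfn2, also without overlap, held none. Ifitm2 and Trim30a, with log2 fold changes of -0.02 and -0.14, held a match. A relation between matches and sex was not tested, and the 4 promoters shown all hold a match. The lines give the stretch around the matches, 5′ to 3′ on the gene's strand, with the matches in capitals, for Ifit3 (chr19:34583333-34583456, plus strand), Ifit1 (chr19:34640745-34640853, plus), Isg15 (chr4:156200835-156200936, minus) and B2m (chr2:122147508-122147597, plus).
Ifit3: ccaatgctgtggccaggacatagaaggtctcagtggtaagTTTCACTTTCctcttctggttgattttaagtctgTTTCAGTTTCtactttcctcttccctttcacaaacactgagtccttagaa
Ifit1: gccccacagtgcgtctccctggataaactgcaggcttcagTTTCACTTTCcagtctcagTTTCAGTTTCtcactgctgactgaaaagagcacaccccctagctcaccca
Isg15: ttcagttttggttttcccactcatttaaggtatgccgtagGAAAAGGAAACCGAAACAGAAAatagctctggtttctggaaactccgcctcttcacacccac
B2m: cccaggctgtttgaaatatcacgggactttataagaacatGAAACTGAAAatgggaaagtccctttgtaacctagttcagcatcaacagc

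Ifit3 and Ifit1 hold 2 matches each, Isg15 3 overlapping ones and B2m 1. The 124 bases shown for Ifit3 are identical in Ifit3b (chr19:34607729-34607852, plus strand).

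Endothelial cells of the same mice gave the same sign for these genes without a call. There, 35 of 35 interferon-induced genes tested were higher in females with a median log2 fold change of -0.41. Ifit3 had -0.87 (adjusted p = 0.256, edgeR), Isg15 -0.64 and Ifit1 -1.004. Between the 2 cell types, the sex difference passed in 4 of 8543 genes (0.0468%, edgeR), 3 of them hemoglobin genes and the other Mgp. For Ifit3 the sex difference in pericytes minus that in endothelial cells was -0.68 with an adjusted p of 1 by edgeR, so it was not shown to be particular to pericytes. How much of the summed pericyte level of these genes came with endothelial transcripts was not tested.

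The effect of Pb differed between the sexes for 1 of 6375 genes (0.0157%, edgeR). That was Slc1a2, the glutamate transporter gene of astrocytes, with an interaction of 3.86 (SE 0.55, adjusted p = 0.0156). It lay at 50.9, 17.9, 133 and 120 CPM in Pb F1, F2, M1 and M2, and at 123, 98.5, 22.7 and 27.1 CPM in the control mice, so that Pb females and control males were low and the other 4 mice high. The summed astrocyte markers, which include Slc1a2, were split into the same 4 high and 4 low mice, at 0.0549, 0.0373, 0.0753 and 0.0717% of pericyte UMIs in Pb and 0.0635, 0.0666, 0.0428 and 0.0521% in control mice. The astrocyte marker Slc1a3 also split this way, at 46.7, 53.8, 87.8 and 101 CPM in Pb and 63.9, 98.5, 31.2 and 48.8 CPM in control mice. Within pericytes under the endothelial limit Slc1a3 did not split so, with 327 CPM in Pb F2 and 124 in control F1. Nor did it over the limit, with 57.8 CPM in control M2 and 39.1 in Pb M1. Gja1 was between 22.7 and 72.2 CPM and Aldoc between 3.59 and 49.2 CPM, both without this split, and Aqp4 between 0 and 7.84 CPM. The part of astrocyte RNA in this result was not tested. The call was lost with limma-voom (adjusted p = 0.135) and in pericytes over the endothelial limit alone (adjusted p = 0.123, edgeR), and without control M1 (adjusted p = 0.0568), where only Enpp2 was called. Without Pb M2 the count was 5, with 4 hemoglobin genes beside Slc1a2, and without control F1 it was 7.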

How the data were processed

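The authors deposited 1 table of UMI counts of 17143 genes in 5258 cells. Per the submitters' processing notes, Cell Ranger, Seurat and the mm10 build were used, while versions, cell filters and doublet removal are not stated there. The table's least cell has 1137 UMIs and 999 genes. Cells with over 20% mitochondrial UMIs (53) were left out, and Scrublet (scanpy 1.11.5) marked doublets, which were kept. The pericytes and all gene lists were chosen with earlier results of these data known. Endothelial cells were those with at least 0.7% endothelial and under 0.1% pericyte UMIs. Counts were summed per mouse and tested with edgeR 4.0.16 (TMM, filterByExpr, quasi-likelihood, Benjamini-Hochberg), with DESeq2 1.42.0 and limma 3.58.1 as alternatives. Shares were compared by exact permutation over mice (scipy 1.17.1). Scripts were tested on simulated data. Named genes were those past the threshold, otherwise the 10 of smallest p for Pb and 5 for other comparisons, the 2 of smallest p per list, and the 25 most enriched. Fewer cells of a type and less RNA per cell cannot be told apart in summed counts. Some items that the naming rule picked are not reported here.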

Additional observations from a re-analysis of the deposited data

Results flagged for a closer look

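In 1 mouse of its group of 4, a value stood apart from the other 3 by more than a 95% critical gap. These were the hemoglobin share of pericyte UMIs in Pb M1 (0.761%), the choroid plexus marker share in Pb F1 (0.430%) and Mt2 in Pb F1 (431 CPM). Chance gives such a gap in about 1 of 20 groups, and many groups were looked at.

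The Pb effect on Slc1a2 differed between females and males, with an interaction of 3.86 (edgeR). The sex difference in pericytes minus that in endothelial cells was called for 4 of 8543 genes (0.0468%, edgeR). For the hemoglobin genes Hbb-bt (3.81, adjusted p = 3.3e-05), Hba-a1 (3.68) and Hba-a2 (3.80) it followed Pb M1, the only mouse with Hbb-bt above 37.97 CPM in pericytes (530 CPM), while in endothelial cells Hbb-bt was between 307.6 and 799 CPM in Pb F1, Pb F2 and Pb M1. Mgp, an inhibitor of calcification, had a difference of -1.26 (adjusted p = 0.0004).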

How the results depend on the processing

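Leaving out 1 mouse at a time moved the Pb minus control difference in the pericyte share of cells from -1.35 to 0.463 points, in the share of vascular cells from -2.46 to 4.11, and in the endothelial share of pericyte UMIs from -0.0546 to 0.0673, so these signs are not settled. At an endothelial limit of 1.4% the share of pericytes over it was 1.59 points higher in Pb, the opposite sign of the main value. The mitochondrial difference between the 2 kinds of pericyte ran from 0.431 to 0.669 points over the left-out mice, and missed the threshold at the 1.4% limit (0.232), without fibroblast-marked cells (0.532) and without shared barcodes (0.484), the last 2 chosen after seeing the data. Differences in UMIs and genes held throughout these alternatives. Without the filter on low counts, edgeR called 15 genes for Pb, 22 for sex and 20 for the interaction, and the cause was not tested. Leaving out mice gave 0 to 2 genes for Pb, 5 to 10 for sex, 1 to 7 for the interaction and 0 to 2 for the difference between cell types. Pericytes under the endothelial limit gave 1 gene for sex and 7 for the difference between cell types, where fewer genes were tested. Limma-voom and pericytes over the limit each gave 0 for the interaction. Over 31 named genes, 564 of 564 alternative values kept the sign, 20 gained and 4 lost the threshold. These genes were picked in the same data and the alternatives share most cells and mice, so the kept signs are no independent support. Outside this count, the Pb log2 fold change of Foxs1 went from 0.53 to -0.19 in pericytes under the limit. That of Myl9 went from 0.06 to -0.19. Same-numbered mice of the 2 groups did not deviate together (correlations -0.11 to -0.03), so they were not treated as pairs. This comparison was between Pb and control mice and cannot show litters within a group. Mice were treated as independent in all tests, although some may be littermates. With the replicate block edgeR called 0 genes for Pb, and the block changed no call. The number of cells, 5 to 27 pericytes under the limit per mouse, limits what can be tested there.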
